A study of Zea mays with 18 samples.

Results

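The ear leaf of the maize hybrid Xianyu 335, the leaf whose axil carries the ear, was compared between plants grown at high and at low planting density during grain filling. The libraries were chosen by their titles, HE for the ear leaf at high density and LE for the ear leaf at low density, and number 6 of the 18 libraries of the series, 3 in each group. The other 12 libraries, from the third leaf above and the third leaf below the ear, enter here as part of the estimate of spread, and the pair below the ear (HB at high and LB at low density) also as a comparison. All plants were of the 1 hybrid and carried no other treatment per the labels, which give neither the number of plants per area nor the number of plants behind a library. The labels do not state whether libraries within HE or within LE are separate plants or plots, so the tests weigh differences only against the spread between libraries, which may be technical.

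The ear leaf and its neighbours supply much of the sugar that fills the kernels, and in a crowded stand they are shaded by neighbouring plants. Shade lowers both the amount of light and the ratio of red to far-red light, which plants read through phytochromes. Maize leaves fix carbon by the C4 route, in which PEP carboxylase in mesophyll cells feeds carbon dioxide to Rubisco in bundle sheath cells. Transcription factors of the MYB, bZIP, AP2/ERF, WRKY and NAC families connect light, hormone and water signals to the genes of the leaf, and abscisic acid is the hormone most closely tied to water shortage. No promoter, protein or transcript sequence was used here, so genes are given by their name and gene model alone.

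Levels are RPKM, read numbers scaled to gene length and library size, as deposited for 31855 gene models. Differences are log2(RPKM + 0.5) of HE minus LE, which understates the change of genes with low values, and are given with their standard error (SE). Of the gene models, 21184 reached 1 RPKM in at least 3 of the 18 libraries and were tested with limma, and a gene was called at a Benjamini-Hochberg adjusted p under 0.05 over all of these genes. With 3 libraries a group the smallest p of an exact permutation test, 2-sided, is 0.1, so single genes rest on the fit across all genes. Summed RPKM ran from 578427 to 589424 in HE and from 560984 to 571254 in LE, and genes above 0 from 26658 to 26899 in HE and from 25749 to 26151 in LE. A relative depth recovered from rare genes was 0.996 to 1.03 in HE and 0.909 to 0.947 in LE, so depth moved with the group. Its part in the results was not tested. Log2 values correlated across genes at 0.974 to 0.985 within a group and at 0.939 to 0.969 between the groups. The first principal component took 61.0% of the variance and placed HE replicate 2 farthest towards the high-density end and HE replicate 1 nearest to the LE libraries.

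Leaf markers were high in both groups. The C4 PEP carboxylase gene pep1 averaged 3969 RPKM in HE and 4777 RPKM in LE. Of 8 seed markers only 2 were high enough to be tested. Of these 1, O10, was called lower (50%, against 4.97% of all genes). The zein z1B_8 and the globulin glb1 were listed at 0 in all 6 libraries, as was the cyclin cyc1. Markers of dividing cells were at or under 15.3 RPKM in every library. Of 5 tested, all had a positive difference and 2 histone H4 gene models were called higher (40%, against 8.97% of all genes). The list's sums did not overlap, at 28.6 to 30.2 RPKM in HE and 19.9995 to 23.9 RPKM in LE. Neither did the libraries of 40.9% of all tested genes. The part of these cells in the results was not tested. Bundle sheath markers, 5 genes that code for enzymes of the inner cell ring, summed to between 2140 and 2504 RPKM in HE and to between 1285 and 1814 RPKM in LE. All 5 had a positive difference and 1 was called higher (20%, against 8.97% of all genes). The sums did not overlap, but neither did the libraries of 40.9% of all tested genes. Mesophyll markers, 10 genes, overlapped between the groups, with sums of 12592 to 14238 RPKM in HE and 13270 to 14568 RPKM in LE. Of these, 7 had a positive and 3 a negative difference, and 1 was called higher (10%, against 8.97% of all genes). In whole leaves, a change in the share of a cell type and a change in RNA per cell cannot be told apart.

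High density was accompanied by more calls upwards than downwards in the ear leaf. limma called 2953 genes, 13.9% of those tested, of which 1900 (8.97%) were higher and 1053 (4.97%) lower at high density. Of these, 768 rose and 152 fell by at least 1 on the log2 scale. The surplus of rises depended on the scaling, since 64.3% of calls were higher with RPKM as deposited, 55.0% after median-ratio rescaling and 46.2% after quantile normalization. It also depended on the level of the gene. Among genes with a mean of 1 to 10 RPKM over the 6 libraries, 955 were higher and 262 lower, whereas above 100 RPKM 62 were higher and 99 lower. After quantile normalization these classes held 567 higher and 660 lower, and 67 higher and 100 lower, so that lower calls were the more frequent in both.

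**Figure D1:**
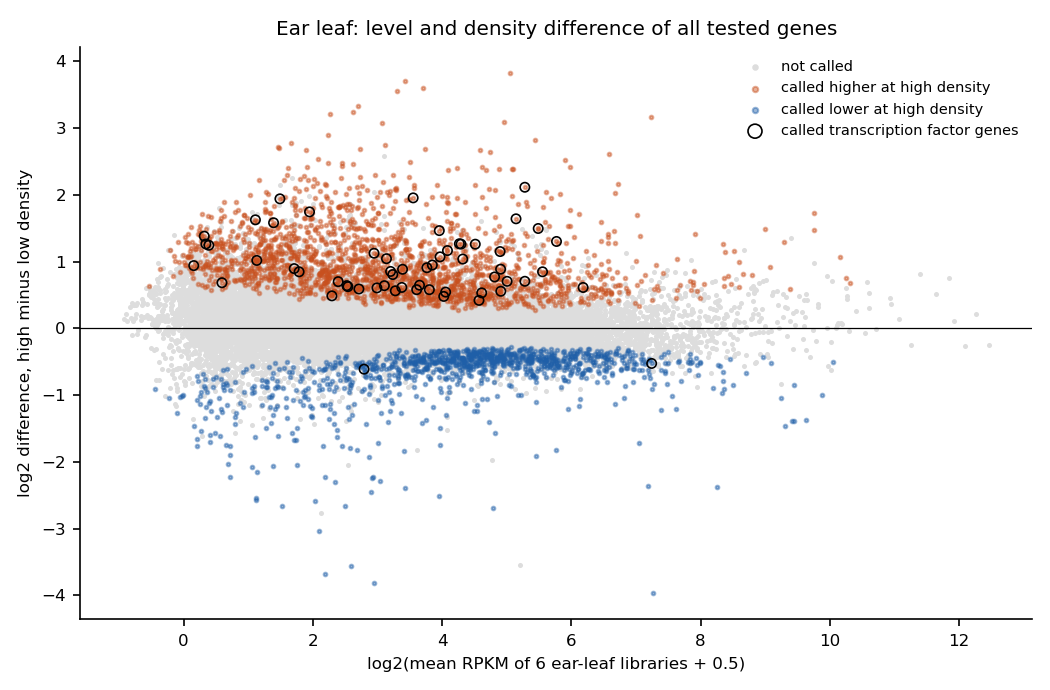
Each point is 1 of the 21184 tested genes, with the log2 of its mean RPKM plus 0.5 on the horizontal axis and the log2 difference of HE minus LE on the vertical axis. Genes called higher (1900) and lower (1053) are coloured, and open circles mark the transcription factor genes that were called, 55 above the zero line and 2 below it.

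The number of calls also rested on single libraries. Leaving out HE replicate 2 gave 901 calls and HE replicate 3 gave 1275, and leaving out LE replicate 1 gave 1065 and LE replicate 3 gave 1442. A gene is termed steady here when it was called in the full fit and in each of the 6 fits that left out 1 HE or LE library, its HE and LE libraries did not overlap, and its higher group averaged at least 5 RPKM. Steady genes numbered 588 (2.78% of those tested), 403 of them higher (1.9%) and 185 lower (0.873%). Non-overlap alone was common, at 40.9% of all tested genes. A gene name was found for 53 of the steady genes, 35 higher and 18 lower.

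**Figure D2:**
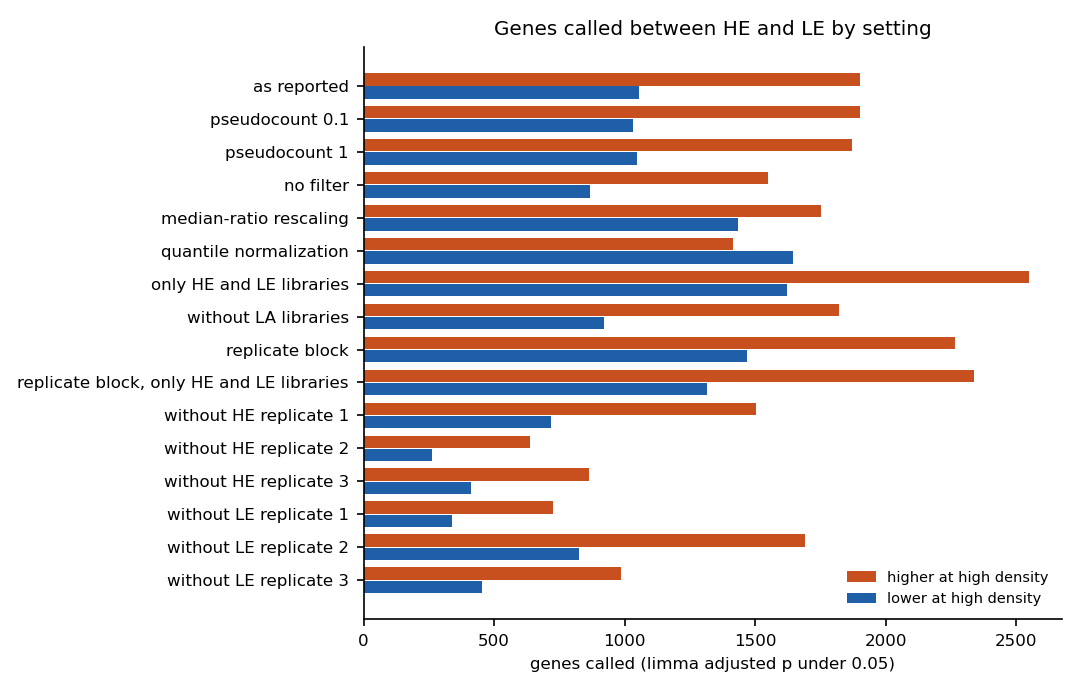
Number of genes called higher (orange) and lower (blue) between HE and LE under each processing alternative, on an axis that starts at 0. The total falls to 901 without HE replicate 2, and lower calls outnumber higher calls after quantile normalization, 1645 against 1414.

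**Figure D3:**
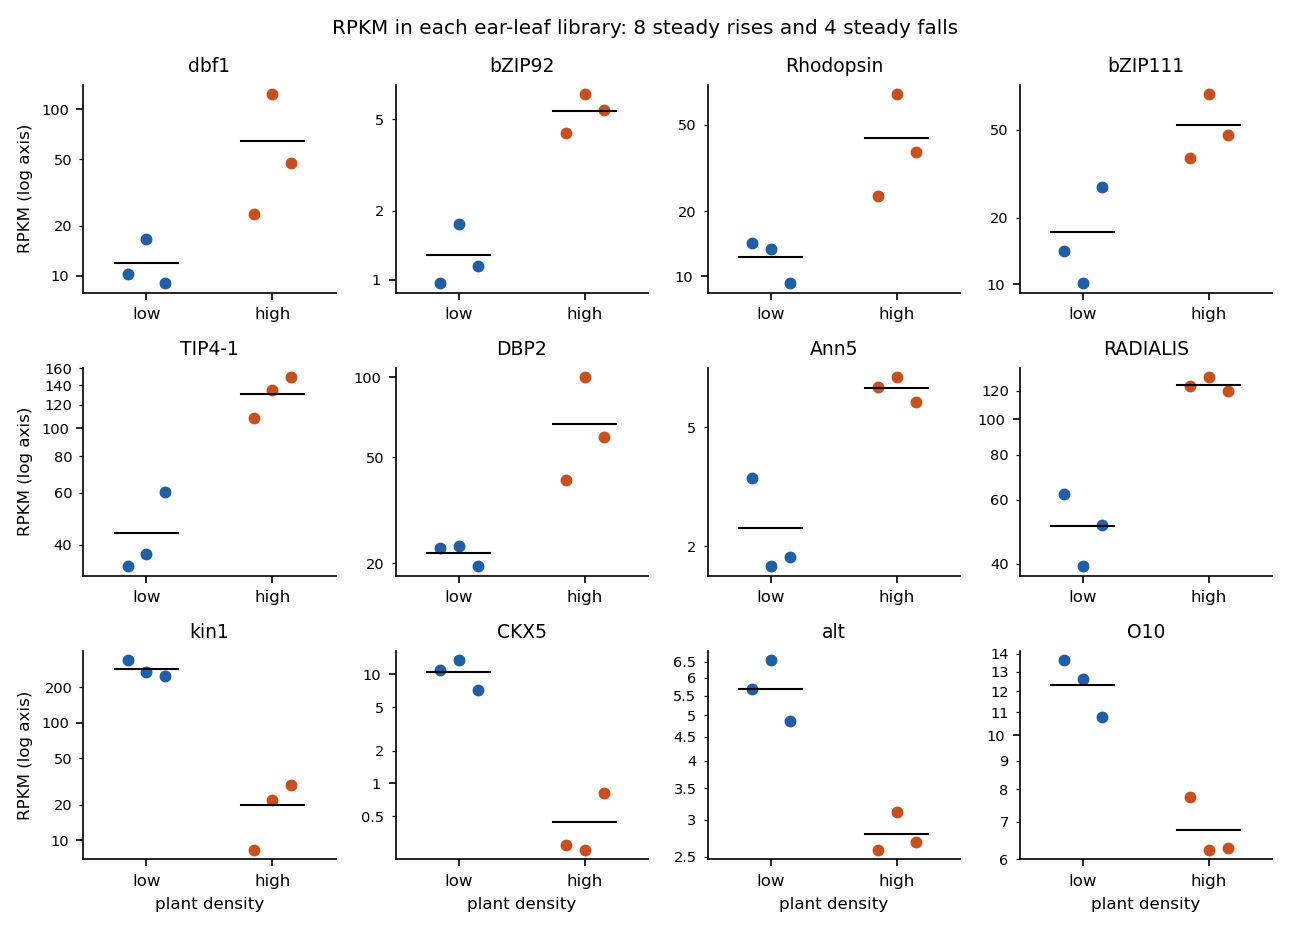
RPKM of 12 steady named genes in each ear-leaf library on log axes whose range differs between panels, with low density on the left, high density on the right and a bar at each group's mean. The panels hold 8 steady rises and 4 steady falls, taken from the largest, which by definition do not overlap between HE and LE. HE replicate 2, the middle orange point, is the highest for dbf1, DBP2 and Rhodopsin.

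Transcription factor genes with a name were called higher far more often than lower. Of 268 tested, 55 were higher (20.5%, against 8.97% of all tested genes) and 2 were lower (0.746%, against 4.97%), with a median log2 difference of 0.23 against 0.03 over all genes. The 2 lower were sbp25 and MADS76. Among factors with a mean of 10 to 100 RPKM, 29 of 112 were called higher (25.9%), and among those at 1 to 10 RPKM 22 of 129 (17.1%). For all tested genes the same classes gave 7.85% and 10.5%. The count of 55 became 50 higher and 6 lower after median-ratio rescaling, and 45 higher and 6 lower after quantile normalization. Leaving out HE replicate 2 gave 22 and HE replicate 3 gave 34, and leaving out LE replicate 1 gave 26 and LE replicate 3 gave 27, with at most 1 called lower in each of these fits. HE replicate 2 was the highest of the HE libraries for 36 of the 55 factors (65.5%) and for 958 of the 1900 genes called higher (50.4%).

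AP2/ERF factors are a family that includes the dehydration-responsive element binding proteins. Of 19 tested, 8 were called higher (42.1%, against 8.97% of all genes) and none lower by limma, with a median log2 difference of 0.48. Leaving out HE replicate 2 or LE replicate 1 gave 3, and leaving out HE replicate 3, LE replicate 2 or LE replicate 3 gave 5. dbf1 (GRMZM2G061487), a dehydration-responsive element binding factor, stood at 23.5, 123.3 and 47.6 RPKM in HE and at 10.3, 16.6 and 9.05 RPKM in LE. HE replicate 2 was the highest library by a wide margin, and the lowest HE library still lay above every LE library. The log2 difference was 2.11 (SE 0.42, limma adjusted p = 0.00614), a 5.42-fold difference of the group means. DBP2 (GRMZM2G055204), a second gene of this binding class, read 41.0, 100.03 and 59.5 RPKM in HE and 22.8, 23.4 and 19.5 RPKM in LE (log2 difference 1.497, SE 0.22, limma adjusted p = 0.00148). EREB109 (GRMZM2G141679) read 23.5, 33.1 and 24.99 RPKM against 10.4, 12.9 and 9.64 RPKM. In all of these genes the HE replicate 2 value was the highest of the 6 libraries, as it was among the HE libraries for 7 of the 8 called members.

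MYB and MYB-related factors gave 11 called higher of 32 tested (34.4%, against 8.97% of all genes). None was called lower by limma, and the median log2 difference was 0.35. Leaving out HE replicate 2 gave 6, LE replicate 1 gave 7 and LE replicate 3 gave 5. RADIALIS (GRMZM2G114503), a small MYB-related gene named for a snapdragon regulator of flower shape, lies outside the 32 genes of this list. It was at 124, 131 and 119.7 RPKM in HE and at 62.4, 39.3 and 51.0 RPKM in LE. The groups were well apart, and no HE library stood out. Its log2 difference was 1.31 (SE 0.25, limma adjusted p = 0.00505). myb31 (GRMZM2G050305), which in maize represses lignin genes, read 12.4, 11.5 and 10.2 RPKM in HE and 4.84, 5.43 and 5.48 RPKM in LE (log2 difference 1.05, SE 0.18). MYB61 (GRMZM2G108959) read 10.8, 11.6 and 12.1 RPKM against 5.86, 6.25 and 6.98 RPKM (log2 difference 0.81, SE 0.18). For both the spread within a group was small beside the gap between them. myb42, the related lignin repressor, was called as well (31.4 ± 5.51 against 13.3 ± 5.09 RPKM, SD, n = 3), but not in every fit that left out a library. None of the 8 lignin and phenylpropanoid genes tested was called in either direction by limma, against 13.9% of all genes. A negative difference was found for 6 of the 8.

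bZIP factors, which include the regulators that bind abscisic acid response elements, gave 8 called higher of 35 tested (22.9%, against 8.97% of all genes). None was called lower by limma, and the median log2 difference was 0.21. Leaving out HE replicate 2 gave 3, HE replicate 3 gave 4, and either LE replicate 1 or 3 gave 5. bZIP92 (GRMZM2G077124) rose from 0.964, 1.74 and 1.14 RPKM in LE to 4.37, 6.45 and 5.51 RPKM in HE (log2 difference 1.75, SE 0.28, limma adjusted p = 0.00202). bZIP111 (GRMZM2G073427) rose from 14.1, 10.1 and 27.6 RPKM to 37.2, 72.8 and 47.4 RPKM, with a wide spread in both groups (log2 difference 1.64, SE 0.33). bZIP113 (GRMZM2G445575) was the most even of the named members, at 20.1, 20.8 and 21.1 RPKM in HE and 8.95, 11.3 and 8.66 RPKM in LE (log2 difference 1.07, SE 0.23).

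Homeodomain factors gave 5 called higher of 24 tested (20.8%, against 8.97% of all genes). Among them were hdz10 (GRMZM2G041127, 60.0 ± 6.95 against 33.0 ± 3.14 RPKM) and HB112 (GRMZM2G003304, 38.2 ± 1.25 against 20.7 ± 4.28 RPKM, SD, n = 3 throughout). The count was 2 without HE replicates 1 or 2 or LE replicates 1 or 3, 3 without HE replicate 3, and 3 after quantile normalization. Of 18 WRKY factors, a plant family linked to defence and leaf ageing, 3 were called higher (16.7%). WRKY29 (GRMZM2G040298) read 14.4, 18.9 and 18.4 RPKM in HE against 7.61, 11.1 and 8.23 RPKM in LE. Of 16 NAC factors 2 were called higher (12.5%) and of 19 bHLH factors 1 was (5.26%), shares near or below the 8.97% of all genes. None of these families had a member called lower by limma, against 4.97% of all genes. Outside them, PLTZ8 (GRMZM2G093270), a zinc-binding PLATZ factor, was at 28.6, 25.4 and 26.01 RPKM in HE and 9.37, 12.99 and 10.2 RPKM in LE (log2 difference 1.27, SE 0.18, limma adjusted p = 0.00126). The HE values lay within a narrow band more than 12 RPKM above every LE value.

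**Figure D4:**
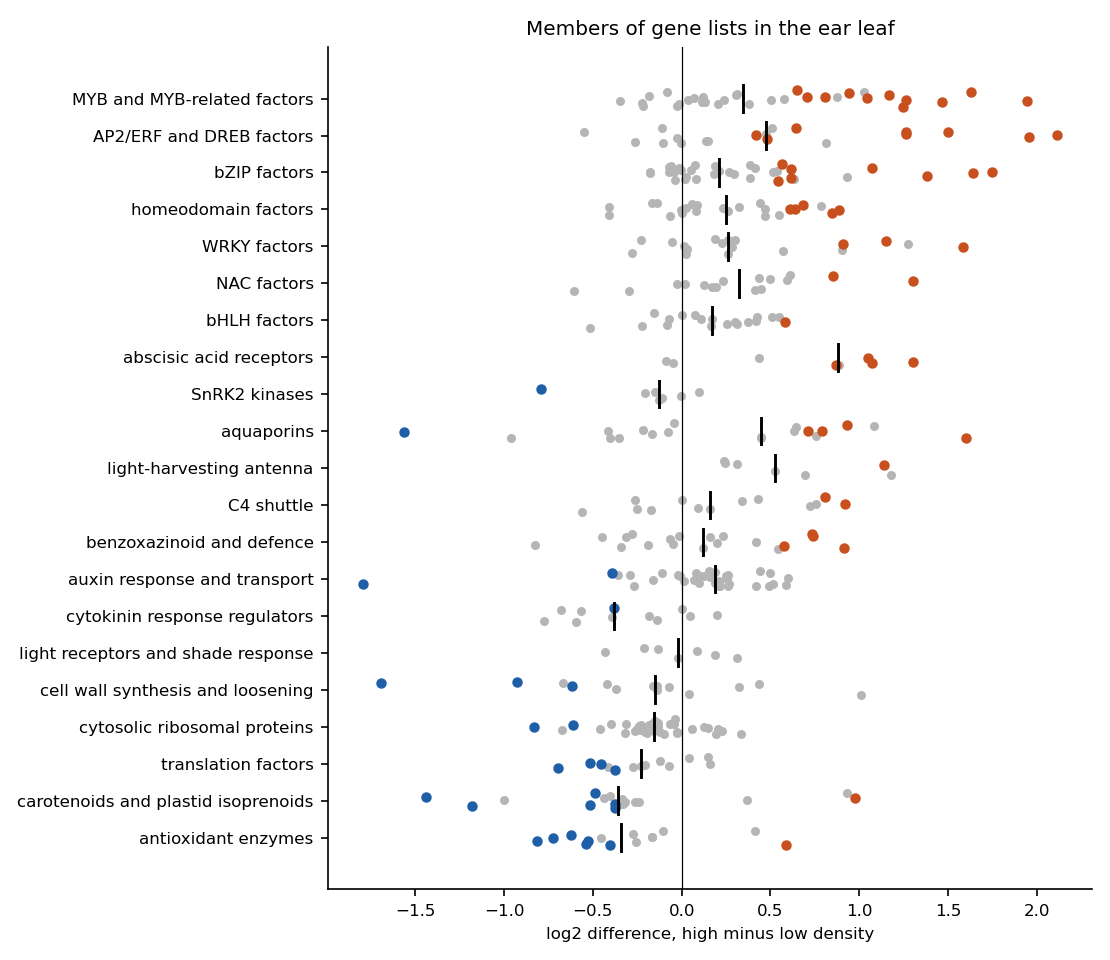
Log2 difference of HE minus LE for each tested member of 21 gene lists, 1 point per gene, coloured where limma called the gene (orange higher, blue lower) and grey where it did not, with a black bar at the list's median. The factor families in the upper rows hold called genes on the right only, and the carotenoid and antioxidant rows hold 6 called genes each on the left and 1 each on the right.

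Abscisic acid is sensed by PYL receptors, which block type 2C protein phosphatases and so free SnRK2 kinases. Among 8 tested PYL receptor genes 4 were called higher (50%, against 8.97% of all genes) and none lower by limma, with a median log2 difference of 0.88. PYL10 (GRMZM2G165567) stood at 22.1, 25.8 and 24.99 RPKM in HE and at 11.4, 10.3 and 12.2 RPKM in LE. The groups were evenly apart, with a log2 difference of 1.07 (SE 0.10, limma adjusted p = 0.000174). PYL5 (GRMZM2G057959) rose from 2.91, 2.32 and 1.95 RPKM to 4.76, 7.61 and 7.78 RPKM (log2 difference 1.30, SE 0.26). PYL2 and PYL3 were called in the full fit but not in every fit that left out a library. The difference between receptors and the genes they act on was not tested. Of 7 SnRK2 kinase genes none was called higher by limma. SnRK2.7 was called lower (1.503 ± 0.0576 against 2.97 ± 0.0537 RPKM, SD, n = 3), a share of 14.3% against 4.97% of all genes. Of 23 type 2C protein phosphatase genes 1 was called higher (4.35%, against 8.97% of all genes) and 3 lower (13.04%, against 4.97%). The split into receptors and kinases was made after their values were seen. Taken as 1 list with vp14, which makes the precursor of abscisic acid, the receptors and kinases gave 5 higher (31.25%) and 1 lower (6.25%) of 16. They gave 2 higher without HE replicates 2 or 3 or LE replicates 1 or 3, 3 higher without LE replicate 2, and 2 higher after quantile normalization.

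Aquaporins, channels that pass water and small solutes through membranes, gave 4 called higher (21.1%, against 8.97% of all genes) and 1 lower (5.26%, against 4.97%) of 19 tested. TIP4-1 (GRMZM2G103945), of the vacuole membrane class, was at 108, 135 and 149 RPKM in HE and at 33.7, 37.2 and 60.5 RPKM in LE (log2 difference 1.60, SE 0.26, limma adjusted p = 0.00209). TIP4-2 (GRMZM2G108273) was at 32.4, 30.3 and 36.1 RPKM in HE and 15.8, 16.9 and 18.3 RPKM in LE (log2 difference 0.93, SE 0.17). Of 3 TIP4 genes tested these 2 were called, and they were high in every HE library. The other called aquaporin genes were at 24.8 RPKM or below in every library. Lsi1, whose rice counterpart passes silicon, was 23.2 ± 1.63 against 13.9 ± 1.02 RPKM, and the plasma membrane channel pip2-5 fell from 1.64 ± 1.10 to 0.145 ± 0.0280 RPKM (SD, n = 3). ERD4 (GRMZM6G732597), an early dehydration gene, rose from 21.0, 30.1 and 22.6 RPKM to 34.6, 47.2 and 58.4 RPKM (log2 difference 0.90, SE 0.17). It was the 1 called gene among 7 dehydrins and early dehydration genes tested (14.3%, against 13.9% of all genes).

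Among the remaining steady named rises, Ann5 (GRMZM2G172834), an annexin that binds membranes with calcium, read 6.83, 7.35 and 6.07 RPKM in HE and 3.38, 1.71 and 1.84 RPKM in LE. BURP4 (GRMZM5G800586), a BURP-domain gene, read 5.71, 9.81 and 11.1 RPKM against 3.02, 2.56 and 4.18 RPKM. The gene model named Rhodopsin (GRMZM2G066197) read 23.6, 69.6 and 37.3 RPKM against 14.2, 13.4 and 9.28 RPKM, again highest in HE replicate 2. hir3 (GRMZM2G070659), of the hypersensitive-induced reaction class, was among the most abundant, at 712, 707 and 694 RPKM in HE and 331, 424 and 369 RPKM in LE (log2 difference 0.92, SE 0.17, limma adjusted p = 0.00448). bx9 (GRMZM2G161335), a glucosyltransferase that stores benzoxazinoid toxins, rose from 26.7 ± 2.85 to 44.98 ± 6.74 RPKM, and the cysteine protease gene mir2 (GRMZM2G150256) from 39.9 ± 5.37 to 66.1 ± 8.18 RPKM (SD, n = 3). Of 19 benzoxazinoid and defence genes 4 were called higher (21.1%, against 8.97% of all genes) and none lower by limma, 10 had a positive and 9 a negative difference, and without HE replicates 2 or 3 or LE replicate 3 the count was 2. The heat shock factor HSF6 (GRMZM2G059851) rose from 3.50 ± 0.172 to 6.003 ± 0.270 RPKM, and glossy2 (GRMZM2G098239), needed for leaf wax, from 2.69 ± 0.523 to 5.03 ± 0.831 RPKM (SD, n = 3). glossy2 was the 1 called gene of 6 epidermis and wax markers (16.7%, against 13.9% of all genes), of which 3 had a positive and 3 a negative difference.

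In photosynthesis, 1 of 7 antenna genes was called (14.3%, against 13.9% of all genes), and it was higher. Summed antenna RPKM was 3990 to 4460 in HE and 2005 to 3454 in LE, and all 7 tested members had a positive difference. The sums did not overlap, but neither did the libraries of 40.9% of all tested genes. lhcb5 (GRMZM2G149428), which codes for a minor antenna protein of photosystem II, stood at 445, 494 and 426 RPKM in HE and at 167, 247 and 212 RPKM in LE (log2 difference 1.14, SE 0.22, limma adjusted p = 0.00554). PPCK2 (GRMZM2G135091), a kinase that acts on PEP carboxylase, stood at 14.7, 16.6 and 14.7 RPKM in HE and 8.85, 6.94 and 7.85 RPKM in LE (log2 difference 0.92, SE 0.19). In the C4 list 2 of 13 genes were called (15.4%, against 13.9% of all genes), PPCK2 and the carboxykinase gene pck2 (97.9 ± 14.3 against 56.0 ± 10.6 RPKM, SD, n = 3). Of 17 photosystem and electron transport genes 1 was called, PGR5, and it was lower (5.88%, against 4.97% of all genes).

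Carotenoid and plastid isoprenoid genes, which make the pigments that protect and assist chlorophyll, were called mostly lower at high density. Of 18 tested 6 were called lower (33.3%, against 4.97% of all genes) and 1 higher, 15 had a negative difference, and the median log2 difference was -0.36. Of the 6, dxs1 and lw1 belong to the plastid isoprenoid route and psy2 codes for phytoene synthase. Pds, vp9 and CRTISO1 code for the desaturases and isomerase that follow phytoene synthase. psy2 (GRMZM2G149317) was at 3.58, 2.70 and 2.90 RPKM in HE and at 7.84, 8.24 and 6.62 RPKM in LE (log2 difference -1.18, SE 0.33, limma adjusted p = 0.029). dxs1 (GRMZM2G137151) was at 3.27, 3.31 and 2.99 RPKM in HE and at 12.3, 6.11 and 11.3 RPKM in LE (log2 difference -1.44, SE 0.39). For both the groups were apart, with the wider spread in LE for dxs1. The phytoene desaturase gene is covered by a pair of gene models that went opposite ways, GRMZM2G410515 from 132 ± 13.4 in LE to 91.6 ± 2.76 RPKM in HE and GRMZM5G815358 from 27.8 ± 8.57 to 53.7 ± 4.25 RPKM (SD, n = 3), so its direction is uncertain. None of the 6 was steady. Leaving out HE replicate 2 or LE replicate 1 gave 0 called lower, leaving out replicate 3 of either group gave 1, and leaving out LE replicate 2 gave 3.

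Antioxidant enzyme genes showed a similar split, with 6 of 14 called lower (42.9%, against 4.97% of all genes) and 1 higher. Their median log2 difference was -0.34. Superoxide dismutases, which turn superoxide into hydrogen peroxide, made up 4 of the 6, and all 7 dismutase genes tested had a negative difference. fsd1 (GRMZM5G864424), the iron form, read 20.5, 14.8 and 16.5 RPKM in HE and 33.5, 29.4 and 28.7 RPKM in LE (log2 difference -0.81, SE 0.14, limma adjusted p = 0.00319). It was the steady member of the list. sod4 (GRMZM2G169890), a copper and zinc form, read 32.8, 29.7 and 34.8 RPKM in HE and 50.5, 64.0 and 48.0 RPKM in LE (log2 difference -0.72, SE 0.19). dhar1 (GRMZM5G855672), which recycles ascorbate, fell from 132 ± 7.38 to 85.8 ± 10.7 RPKM and the glutathione reductase gene gor1 from 89.9 ± 12.6 to 67.5 ± 2.05 RPKM (SD, n = 3). The ascorbate peroxidase gene apx went the other way, from 54.5 ± 9.09 to 81.7 ± 10.7 RPKM. The count of 6 was 4 without HE replicate 1, 1 without HE replicate 2, and 2 without HE replicate 3 or LE replicates 1 or 3.

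Called genes of protein synthesis were all lower at high density. Of 13 translation factor genes 4 were called lower (30.8%, against 4.97% of all genes) and none higher by limma, with a median log2 difference of -0.23. tif5A (GRMZM2G144030), an initiation factor, read 193, 172 and 203 RPKM in HE and 299, 279 and 346 RPKM in LE (log2 difference -0.70, SE 0.14, limma adjusted p = 0.006). The called elongation factor gene EF1-A read 284, 290.35 and 313 RPKM in HE and 400.1, 374 and 444 RPKM in LE (log2 difference -0.45, SE 0.12). Their differences were smaller than those of the transcription factors named above, at high levels in both groups. The list's count was 2 without HE replicates 1 or 3 or LE replicate 1, and 1 without HE replicate 2 or LE replicate 3. Of 37 cytosolic ribosomal protein genes 30 had a negative difference but only 2 were called lower, rps10 among them, a share of 5.41% against 4.97% of all genes. The 2 were called in each fit that left out a library. rps10 (GRMZM2G095511) read 7.94, 6.91 and 7.30 RPKM in HE and 10.9, 11.1 and 12.7 RPKM in LE, with a small spread in both groups (log2 difference -0.61, SE 0.11, limma adjusted p = 0.00371).

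Cell wall genes gave 3 called lower (21.4%, against 4.97% of all genes) and none higher by limma of 14 tested. They were the cellulose synthase genes CesA-3 (11.9 ± 1.68 in HE against 18.5 ± 2.24 RPKM in LE) and CesA-7 (2.46 ± 0.790 against 5.08 ± 1.10 RPKM) and the stalk strength gene bk2 (0.106 ± 0.0872 against 1.55 ± 0.824 RPKM; SD, n = 3 throughout). The count was 1 without HE replicates 1 or 2 and without LE replicate 1, and 2 without LE replicates 2 or 3.

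Cytokinin oxidases break cytokinins down, and their genes did not move together. CKX5 (GRMZM2G325612) was at 0.270, 0.247 and 0.813 RPKM in HE and at 11.1, 13.5 and 7.17 RPKM in LE. Every HE library was under 1 RPKM and every LE library above 7 RPKM, a log2 difference of -3.56 (SE 0.61, limma adjusted p = 0.00267). cko2 (GRMZM2G050997) also fell, from 16.7 ± 2.34 to 7.96 ± 2.42 RPKM, whereas CKX10 (GRMZM2G348452) rose from 5.46 ± 2.79 to 13.6 ± 2.76 RPKM (SD, n = 3). The phosphotransfer genes HP1 and hp2, which carry the cytokinin signal to the nucleus, were called higher, and of 11 response regulator genes 1 was called lower, crr5 (GRMZM2G032496), with a median log2 difference of -0.38 over the 11. Over all 30 cytokinin genes tested, 3 were called higher and 3 lower, 10% each against 8.97% and 4.97% of all genes.

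The largest steady fall of a named gene in log2(RPKM + 0.5) was that of kin1 (GRMZM2G158394). It read 8.30, 21.9 and 29.7 RPKM in HE and 339, 268 and 249 RPKM in LE, so that every HE library was under 30 and every LE library above 240 RPKM. The log2 difference was -3.96 (SE 0.60, limma adjusted p = 0.00165), and the LE mean was 14.3-fold the HE mean. By the ratio of means CKX5 fell further, with an LE mean 23.8-fold its HE mean. The other steady falls were much smaller, between -0.47 and -0.91 on the log2 scale except CKX5. Among them HINT (GRMZM2G018728), a histidine triad nucleotide-binding protein gene, read 94.5, 81.8 and 93.6 RPKM in HE and 151, 164 and 159 RPKM in LE (log2 difference -0.81, SE 0.12, limma adjusted p = 0.00139). O10 (GRMZM2G346263), known for its part in zein protein bodies of the kernel, read 7.75, 6.24 and 6.27 RPKM in HE and 13.6, 12.6 and 10.8 RPKM in LE. MMT1 (GRMZM2G098039), a methionine S-methyltransferase gene, read 42.6, 40.8 and 46.6 RPKM in HE and 74.0, 75.7 and 66.8 RPKM in LE. The spread within each group of these 3 genes was small beside the gap between the groups.

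AGP2, IBP1, alt (GRMZM2G088064), the prohibitin gene phb3 and mlo8, of a family of membrane proteins named for barley mildew resistance, fell by 0.77 to 0.91 on the log2 scale. AGP2 (GRMZM2G027955) was the most abundant of them, at 67.9 ± 2.61 RPKM in HE and 119 ± 12.8 RPKM in LE, and alt, phb3 and mlo8 were under 8 RPKM in every ear-leaf library. Other gene models named alt did not differ, at -0.15 and -0.01. Among genes without a name, the steady extremes were GRMZM2G438202 and GRMZM2G481184, higher by 3.24 and 3.21, and GRMZM2G374302 and GRMZM5G844628, which fell by 3.81 and 3.68 on the log2 scale.

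Light receptor and florigen genes form short lists, read against the 13.9% called over all tested genes. Of 7 light receptor and shade response genes none was called by limma, with adjusted p from 0.0846 to 0.96. The phytochrome gene PHYB (GRMZM2G124532) read 54.7, 56.9 and 49.3 RPKM in HE and 47.9, 64.5 and 52.2 RPKM in LE, and the groups overlapped (log2 difference -0.02, SE 0.22). PhyB2 (GRMZM2G092174) read 14.4, 18.03 and 14.1 RPKM in HE and 20.7, 20.3 and 21.9 RPKM in LE, which did not overlap but missed the threshold (log2 difference -0.43, SE 0.16, limma adjusted p = 0.0846). The phototropin gene nph1 overlapped between the groups at 331 ± 31.6 and 311 ± 19.7 RPKM (SD, n = 3). ZCN8, the main florigen gene of maize, read 41.1, 37.6 and 42.1 RPKM in HE and 64.6, 46.2 and 86.3 RPKM in LE (log2 difference -0.66, SE 0.29, limma adjusted p = 0.139). Its close relative ZCN7 read 42.9, 41.5 and 54.1 RPKM against 59.1, 47.2 and 89.3 RPKM (log2 difference -0.45, SE 0.27), and ZCN14 65.0 ± 7.94 against 59.1 ± 7.84 RPKM (SD, n = 3). Of 6 FT-like genes 1 was called, ZCN11, from 1.23 ± 0.725 to 5.18 ± 1.47 RPKM. Auxin genes gave 2 called lower and none higher by limma of 35 tested, abp1 and GH3, and gibberellin genes 1 higher, the growth repressor d9 (22.5 ± 1.59 against 11.8 ± 4.01 RPKM), and 1 lower, an1 (1.90 ± 0.440 against 4.37 ± 0.734 RPKM), of 5.

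In sugar and nitrogen metabolism the calls were likewise set against 13.9%. Of 24 sucrose and starch genes 1 was called lower, the sucrose phosphatase gene spp1 (92.3 ± 6.25 in HE against 139.8 ± 11.9 RPKM in LE), and none higher by limma. Of 15 sugar transport genes 1 was called higher, sfp6, and of 18 nitrogen genes 2 were called lower, the glutamine synthetase genes gln2 and gln3 (SD, n = 3 throughout). Of 36 jasmonate and lipoxygenase genes 2 were called higher, TIFY4 and TIFY2, members of the repressor family of jasmonate signalling. TIFY4 (GRMZM2G445634) read 2.13, 46.7 and 11.8 RPKM in HE and 0.346, 0.465 and 0.342 RPKM in LE, a range of over 40 RPKM within HE (log2 difference 3.70, SE 0.85).

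The same question was put to the third leaf below the ear, the other position whose density labels carry no conflict. There limma called 7070 genes between HB and LB, 33.4% of those tested. Of the 588 steady genes of the ear leaf, 426 were called in the lower leaf with the same sign and 6 with the opposite sign. The difference between the leaves itself, HE minus LE less HB minus LB, was called for 815 of the 21184 genes (3.85%) and for 48 of the 588 steady genes. It reuses the HE and LE values by which steady genes were picked, so these 2 counts cannot be weighed against each other. Among the 53 steady named genes 6 had a called difference between the leaves. RADIALIS was higher at high density in the ear leaf and lower in the lower leaf (7.37 ± 1.63 RPKM in HB against 35.2 ± 12.4 RPKM in LB, SD, n = 3), a difference of 3.44 between the leaves (limma adjusted p = 9.04e-05). The plasma membrane aquaporin gene pip2b also changed in opposite directions, from 7.35 ± 1.19 to 12.99 ± 1.10 RPKM in the ear leaf and from 10.98 ± 0.459 to 6.15 ± 0.762 RPKM in the lower leaf (limma adjusted p of the difference 0.00333).

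lhcb5, bZIP111, CKX5 and alt were called in the ear leaf and not in the lower leaf, and the difference between the leaves was called for each. lhcb5 was 207 ± 51.2 RPKM in HB and 263 ± 57.5 RPKM in LB, where the order of the means was the reverse of that in the ear leaf and the difference was not called. bZIP111 was level in the lower leaf at 24.8 ± 11.1 and 24.7 ± 1.43 RPKM. CKX5 was 2.13 ± 1.002 RPKM in HB and 4.66 ± 6.18 RPKM in LB, where the spread was wider than the mean. The count of 815 ran from 221 without LB replicate 3 to 2933 without LB replicate 2, and was 322, 348 and 283 without HE replicates 1, 2 and 3, 266 and 460 without LE replicates 2 and 3, 518 without LE replicate 1, 315 and 440 without HB replicates 2 and 3, and 334 without LB replicate 1. kin1 fell in both leaves, with 10.04 ± 4.01 RPKM in HB and 349 ± 245 RPKM in LB. dbf1 was 86.2 ± 22.5 RPKM in HB and 20.4 ± 4.996 RPKM in LB, and the leaves differed by 0.07 on the log2 scale (limma adjusted p = 0.963).

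**Figure D5:**
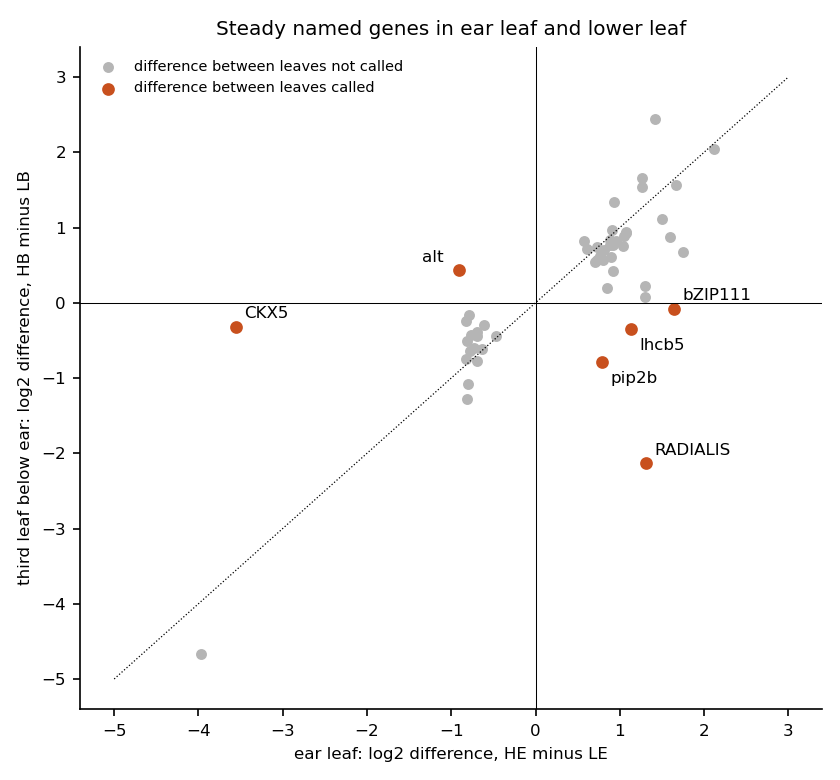
Log2 density difference of the 53 steady named genes in the ear leaf (horizontal, HE minus LE) and in the third leaf below the ear (vertical, HB minus LB), with a dotted line where both are equal. Orange points are the 6 genes whose difference between the leaves was called, from RADIALIS at 1.31 and -2.13 to CKX5 at -3.56 and -0.32.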

How the data were processed

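RNA from 18 leaf libraries was sequenced after extraction with a Trizol-type reagent and an NEBNext Ultra kit, per the labels' protocols. Per the submitters' processing notes, the authors used Trimmomatic 0.35, HISAT 0.1.6, HTSeq 0.6.1 and B73 RefGen_v3, and deposited RPKM values per gene model. The RPKM formula, gene lengths and strand setting are not given in the sources used here, so antisense and overlapping genes and close copies may share reads. Read totals are unknown, so no counting intervals are given, and relative depth came from the value of 1 read in 802 rare genes.

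Groups follow titles. The treatment label of the 3 LA libraries (upper leaf) reads high density against their titles, so LA entered only the estimate of spread. Genes were kept from 1 RPKM upwards in 3 or more libraries, and limma 3.58.1 (R 4.3.3) was run on log2(RPKM + 0.5) with 6 group means, an intensity trend and 2-sided tests (12 residual and 4.475 prior degrees of freedom). In simulated data for HE minus LE (21184 genes, 200 changed), 67% of changes of 1 and 95% of changes of 2 on the log2 scale were called.

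Names came from a RefSeq table (Zm-B73-REFERENCE-NAM-5.0). It held 17838 of the gene models, 489 in more than 1 row, and named 2474, of which 1935 were tested (161 called higher, 115 lower). It holds symbols without descriptions, so lists and the rule for named genes were applied to names, and a planned motif count was not made. Named genes are the 12 largest steady rises and falls, up to 2 steady members per list and direction, and phytochrome, phototropin and FT-like genes. Further list members were named after their values were seen, and a few genes are not reported here. The libraries, gene lists and rules were chosen with earlier results of these data known. Lists are described by counts and medians, with no set test. Alternatives changed the pseudocount, filter, scaling, libraries and replicate block.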

Additional observations from a re-analysis of the deposited data

Results flagged for a closer look

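The items here are genes named above, or called members of the gene lists, whose density difference in the ear leaf differed from that in the third leaf below the ear by the interaction in limma (adjusted p under 0.05 over all genes). Values are the ear-leaf log2 difference less the lower-leaf one. They reuse the ear-leaf values by which called genes were picked.

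Genes whose value was positive were RADIALIS (3.44, adjusted p = 9.04e-05), MYBR87 (2.86, 0.00532), MYBR41 (2.60, 0.0129), ZCN7 (2.05, 0.00961), bZIP111 (1.72, 0.0493), ZCN8 (1.67, 0.0342), pip2b (1.58, 0.00333), lhcb5 (1.49, 0.0186), sfp6 (1.43, 0.0145) and ZIP4 (1.11, 0.0323). RADIALIS, MYBR87 and MYBR41, all MYB-related, were higher at high density in the ear leaf by 1.31, 1.47 and 1.17 and lower in the lower leaf by log2 differences of -2.13, -1.40 and -1.43. In the lower leaf MYBR87 and MYBR41 were low, at 0.463 ± 0.214 and 0.989 ± 0.855 RPKM in HB. In LB they averaged 2.04 ± 0.537 and 3.24 ± 1.28 RPKM (SD, n = 3). For ZCN7 and ZCN8 the lower leaf carried the change, at -2.50 and -2.32, and the ear-leaf differences of -0.45 and -0.66 were not called.

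Genes whose value was negative were GH3 (-4.61, adjusted p = 0.00323), CKX5 (-3.24, 0.0457), cko2 (-1.42, 0.0346), alt (-1.34, 0.0181), Sod4A (-0.80, 0.0224), abp1 (-0.70, 0.0232) and PP2C (-0.58, 0.0271). GH3, an auxin-conjugating enzyme gene, was lower at high density in the ear leaf (-1.79) and higher in the lower leaf (2.82). Its LE libraries spread from 3.60 to 16.8 RPKM. CKX5 and cko2, both cytokinin oxidase genes, fell in the ear leaf and were not called in the lower leaf.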

How the results depend on the processing

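The 53 steady named genes were called with the same sign in each of the 9 alternatives that did not enter the definition of steady. Those alternatives reuse the libraries by which the genes were picked, so this outcome was largely fixed in advance. The surplus of higher over lower calls turned after quantile normalization, to 1414 higher and 1645 lower. Genes called lower numbered 1621 in HE and LE libraries alone. Named transcription factors called lower numbered 6 after median-ratio rescaling and 6 after quantile normalization, 5 in HE and LE libraries alone, 1 without the filter and 1 without LA libraries. Homeodomain factors called higher were 3 after quantile normalization and 3 without LA libraries. Abscisic acid receptors and kinases called higher were 3 without the filter and 2 after quantile normalization. In HE and LE libraries alone, carotenoid genes called lower were 11 and ribosomal protein genes 5.

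The replicate numbers showed no clear pairing of HE with LE. Deviations from the group means correlated at 0.12, 0.060 and -0.12 for the same numbers, and at -0.14 to 0.10 for other numbers. With 3 libraries a group these values cannot exclude pairing. With the replicate block 3731 genes were called (2953 without it), 1566 genes for the difference between leaves (815 without it) and 5 transcription factors lower. With the block in HE and LE libraries alone 3650 genes were called (4168 without it), and 5 ribosomal protein genes lower.

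With 1 library left out, genes called ran from 901 to 2514 (higher 637 to 1690, lower 264 to 824), and the difference between leaves from 221 to 2933. Members called ran from 22 to 54 for transcription factors higher and 0 to 1 lower, 3 to 7 for AP2/ERF, 5 to 11 for MYB, 3 to 8 for bZIP, 2 to 6 for homeodomain factors, 2 to 4 for abscisic acid genes, 3 to 5 for aquaporins and 2 to 5 for defence genes. Lower calls ran from 1 to 5 for antioxidants, 0 to 5 for carotenoids, 1 to 5 for translation factors, 1 to 3 for cell wall genes and 2 to 2 for ribosomal proteins. The cause was not tested. Unadjusted p lay under 0.05 for 6372 genes. Read totals are unknown, so what depth limits for rare genes was not measured.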
